A study of Homo sapiens with 2 samples.

Results

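The 10 genes described here are the 6 conventional actin genes ACTA2, ACTG2, ACTA1, ACTC1, ACTB and ACTG1, and 4 genes of actin-associated proteins, TAGLN, TAGLN2, MYL9 and CNN2. They were taken by symbol from a table of 19220 gene symbols. The set was chosen by the read counts of ACTA2, which encodes the alpha actin of smooth muscle: 70911 and 77435 in the 2 libraries of a T cell line. The levels below are therefore a description. The table holds 1 library of untreated wild-type cells of the line H9, which was established from a human T cell lymphoma, and 1 library of the same wild-type line exposed to doxorubicin at 0.05 µM for 6 h. Doxorubicin, an anthracycline used in chemotherapy, damages DNA through topoisomerase II. Both libraries were made from poly(A) RNA, with 33730703 counts for the untreated and 50174434 for the treated cells. With 1 library per condition there is no replicate and no test, and intervals cover counting error only. The series addresses how expression differs after exposure to the drug.

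Actin monomers assemble into filaments that give cells their shape and let them move, and in a T cell the filaments also build the contact with an antigen-presenting cell. ACTB and ACTG1 encode the cytoplasmic actins found in nearly all cells. ACTA2 and ACTG2 encode the smooth muscle actins, ACTA1 the skeletal muscle actin and ACTC1 the cardiac actin. Transgelins (TAGLN, TAGLN2) and calponins (CNN2) bind the filament, and MYL9 is a regulatory light chain of smooth muscle and nonmuscle myosin II. Many of these genes are known targets of serum response factor, which binds the CArG box, and of its MRTF co-factors.

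The proteins of the 6 actin genes are nearly alike, so the coding sequences are shown first, because they decide whether short reads can be told apart. The first 60 coding bases of the GENCODE 29 reference transcripts are given 5′ to 3′, with capitals where the aligned base differs from that of ACTA2. Alignment gaps are not printed, so the lines of ACTG2, ACTB and ACTG1 are shifted against that of ACTA2. The gaps came to 3 coding bases for ACTG2 and 6 each for ACTB and ACTG1. Neither the differing bases nor the identities below include them.
ACTA2: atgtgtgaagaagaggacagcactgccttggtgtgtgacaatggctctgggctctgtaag
ACTG2: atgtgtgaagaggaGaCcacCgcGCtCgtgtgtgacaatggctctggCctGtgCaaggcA
ACTA1: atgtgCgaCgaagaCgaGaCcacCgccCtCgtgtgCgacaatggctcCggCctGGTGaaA
ACTC1: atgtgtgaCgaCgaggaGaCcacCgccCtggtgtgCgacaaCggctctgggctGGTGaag
ACTB: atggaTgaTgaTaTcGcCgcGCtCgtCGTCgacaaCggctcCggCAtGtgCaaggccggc
ACTG1: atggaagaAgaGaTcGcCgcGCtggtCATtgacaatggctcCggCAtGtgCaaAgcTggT
Within these starts ACTG2 had 10 bases that differ from ACTA2, ACTC1 had 12, ACTA1 had 16, ACTG1 had 18 and ACTB had 19. Over the whole coding sequence ACTA2 was 84.9% identical to ACTG2, 85.5% to ACTC1, 84.6% to ACTA1, 82.3% to ACTG1 and 82.2% to ACTB. The differences were spread along the transcripts. The longest run of identical bases that ACTA2 shared with another actin's reference transcript was 35 bases, with ACTC1, followed by 32 with ACTB, 29 with ACTG2 and with ACTA1, and 26 with ACTG1. Of the 1300 windows of 50 bases in the ACTA2 transcript, 0 occurred in the transcript of another actin. ACTG2 likewise shared 0 of its 1481 windows with the other actin transcripts, and 2 with the POTE genes, which carry an actin-like part. ACTB and ACTG1 were the closest pair, with 91.3% coding identity and a longest shared run of 59 bases, and ACTB had 10.9% of its 1763 windows in some other gene or pseudogene.

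The ACTA2 counts do meet another kind of overlap, with genes on the opposite strand. In GENCODE 29 on GRCh38, ACTA2 lies on chromosome 10 from 88935074 to 88991339 on the minus strand. Of its merged exon bases 17.3% overlap ACTA2-AS1, an antisense gene, and 12.8% overlap FAS, which encodes the death receptor Fas. Of the 1300 windows of the ACTA2 transcript, 30.1% were also found in ACTA2-AS1, on the other strand, and that antisense gene was the only other gene found. The sources used here do not give the strand setting of the counting. It is therefore not known whether reads from ACTA2 and from its antisense partners were told apart within the overlapping stretches. The other windows of the ACTA2 transcript were found in no other gene. FAS itself had 12509 counts untreated and 18199 treated, against 70911 and 77435 for ACTA2. FAS thus had fewer counts than ACTA2 in both libraries, by a factor of 5.67 untreated and 4.25 treated. These totals do not give the number of reads within the overlapping stretches. ACTA2-AS1 was not analysed here.

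ACTG1 and ACTB were among the most abundant mRNAs of the cells. Levels between genes are compared per transcript length, in TPM, that is counts divided by transcript length and scaled to the same sum in each library. ACTG1 had 237693 counts untreated and 350067 treated, or 7882 and 8894 TPM. ACTB had 211710 and 301948 counts, or 7791 and 8514 TPM. They held places 2 and 3 among 18683 protein-coding genes with a length, in both libraries. With these reference lengths their levels lay within a factor of 1.01 of each other untreated and 1.04 treated, with no replicate to show the spread between cultures. The likeness depends on the length used. The reference transcripts have 1812 bases for ACTB and 2011 for ACTG1, the median annotated transcripts 715 and 1678, and the merged exons 3519 and 2993. Levels of these 2 genes with the other lengths are not given here.

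ACTA2 came next among the actins. It had 70911 counts untreated and 77435 treated, which is 3505 and 2933 TPM and place 31 and 32 in the 2 libraries. ACTB was 2.22 times as abundant per reference length as ACTA2 untreated and 2.90 times treated. In counts, with no division by length, the factors were 2.99 and 3.90. The 3 genes just above ACTA2 in the untreated library were EEF2 at 3545 TPM, RPL35 at 3829 and RPS7 at 3880, that is a translation elongation factor and 2 ribosomal proteins. The 3 just below were the ribosomal protein genes RPL4 at 3363 and RPL6 at 3289 and the cytokine gene LTB at 3238. This likeness is one of level in 1 library.

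ACTG2, the gamma actin of smooth muscle, was abundant as well. It had 28660 counts untreated and 35975 treated, or 1249 and 1201 TPM, at place 100 and 90. ACTA2 exceeded it 2.81 times per length untreated and 2.44 times treated. The 2 striated muscle actins were the opposite case. ACTA1 and ACTC1 were at 0 counts in each library. Taking 3 counts as the limit, this allows at most 0.0889 CPM (counts scaled to the library total) untreated and 0.0598 treated. Both smooth muscle actins were thus present and both striated muscle actins undetected, in each library.

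**Figure D1:**
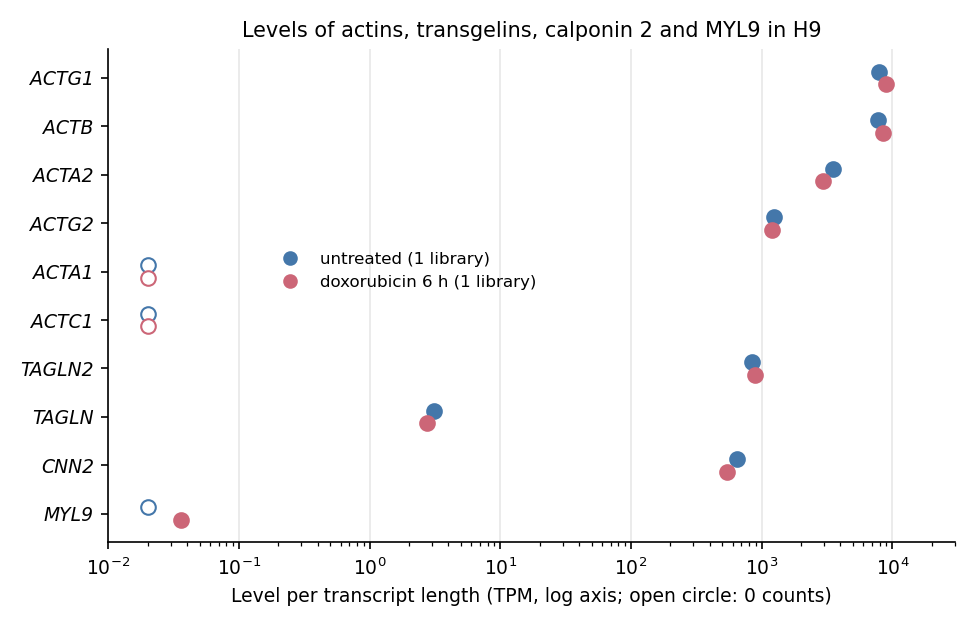
Level per transcript length in TPM (log axis) of the 10 genes in the untreated library (blue) and the doxorubicin library (red), 1 library each; open circles at the left stand for 0 counts and have no position on the scale. ACTA2 at 3505 and 2933 TPM and ACTG2 at 1249 and 1201 lie below the cytoplasmic actins and above TAGLN2 and CNN2, while ACTA1 and ACTC1 are at 0 counts.

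For each muscle actin, 1 promoter carries the motif of serum response factor, or a close variant, so they are shown for the 2 expressed and the 2 undetected genes. The CArG box is CC, then 6 bases that are each A or T, then GG, and since its pattern reads the same on both strands 1 search covers both. Each line gives the 250 bases before a RefSeq start in GRCh38.p14, a later build than the hg19 of the counts, 5′ to 3′ on the gene's strand. Capitals mark matches, allowing at most 1 of the 6 bases to be C or G, and no matches overlapped.
ACTA2 downstream start, chr10:88952774-88953023, minus strand: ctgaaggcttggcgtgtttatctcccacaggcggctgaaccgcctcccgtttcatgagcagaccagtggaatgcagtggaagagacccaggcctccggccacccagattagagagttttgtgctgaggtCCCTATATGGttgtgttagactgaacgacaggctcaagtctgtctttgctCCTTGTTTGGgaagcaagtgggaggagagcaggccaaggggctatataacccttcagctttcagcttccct
ACTG2, chr2:73892758-73893007, plus strand: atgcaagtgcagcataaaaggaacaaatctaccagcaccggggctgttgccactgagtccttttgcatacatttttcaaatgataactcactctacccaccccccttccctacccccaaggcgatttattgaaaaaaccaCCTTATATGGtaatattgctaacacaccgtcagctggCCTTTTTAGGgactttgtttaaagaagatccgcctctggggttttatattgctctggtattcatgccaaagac
ACTA1, chr1:229434095-229434344, minus strand: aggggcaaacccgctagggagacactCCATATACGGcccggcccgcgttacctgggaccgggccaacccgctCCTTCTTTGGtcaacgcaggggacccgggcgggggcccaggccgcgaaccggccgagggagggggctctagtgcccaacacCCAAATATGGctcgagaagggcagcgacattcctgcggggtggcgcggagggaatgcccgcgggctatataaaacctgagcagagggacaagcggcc
ACTC1 first start, chr15:34795550-34795799, minus strand: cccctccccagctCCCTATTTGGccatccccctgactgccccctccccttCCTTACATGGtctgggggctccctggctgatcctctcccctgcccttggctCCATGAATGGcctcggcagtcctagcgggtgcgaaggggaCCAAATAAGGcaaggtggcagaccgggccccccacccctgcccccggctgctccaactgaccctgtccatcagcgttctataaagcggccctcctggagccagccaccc
ACTA2 had 0 exact boxes here and 2 with 1 changed base, CCCTATATGG and CCTTGTTTGG, whose first bases lie 121 and 71 bases before the start. ACTG2 had 2 exact boxes, CCTTATATGG and CCTTTTTAGG, at 110 and 73 bases. ACTA1 had 1 exact box, CCAAATATGG at 97 bases, with 2 changed ones, and ACTC1 had 1, CCAAATAAGG at 109 bases, with 3 changed ones. Exact boxes were also found in ACTG1 (CCATATATGG, 94 bases before the start) and CNN2 (CCTTATAAGG, 89 bases). The upstream start of ACTA2, which lies beside FAS, had none of either kind, and neither had the 3 starts of TAGLN2 or the other 2 of ACTC1. Of 35116 RefSeq promoters of this length 1.16% held an exact box and 7.04% one with at most 1 changed base. The promoter table held 7 of the 10 genes. These matches are letters in a window, present in expressed and undetected actins alike, and the counts do not show which start of ACTA2 was used.

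Beyond the actins, the ubiquitous relatives were high and the smooth muscle forms were near 0. TAGLN2, the transgelin of many nonmuscle cells, had 20248 counts untreated and 27807 treated, or 842 and 886 TPM. TAGLN, the transgelin of smooth muscle, had 69 and 80 counts, or 3.12 and 2.77 TPM. TAGLN2 was thus 270 times as abundant per length as TAGLN untreated and 320 times treated. Of the 1428 windows of TAGLN, 27.8% were also found in PCSK7, which overlaps it on the other strand and had 1679 and 3277 counts, so even the low TAGLN counts are uncertain.

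The calponin genes split in the same way, and the light chain genes also differed in level. CNN2, a calponin of nonmuscle cells, shared 13.7% of its 2145 windows with other annotated genes. It had 21410 counts untreated and 23293 treated, or 651 and 542 TPM, while CNN1, the calponin of smooth muscle, had 12 and 8 counts. MYL9, a light chain of both smooth muscle and nonmuscle myosin II, had 0 counts untreated and 2 treated. This is within the 3 counts that a count of 0 allows, so no ratio is given. The related nonmuscle light chains were detected, with 12182 and 12147 counts for MYL12A and 6517 and 6724 for MYL12B.

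The other markers of smooth muscle did not follow ACTA2 and ACTG2. Of the 11 listed smooth muscle markers that are not actins, 3 had 0 counts in both libraries (LMOD1, SMTNL2 and CALD1), and their summed level was 28.7 TPM untreated and 26.2 treated. MYH11, the myosin heavy chain of smooth muscle, had 78 and 113 counts, DES had 0 and 2, and MYLK, the myosin light chain kinase, had 54 and 82. Most of the summed level came from KCNMB1, a potassium channel subunit, at 20.7 and 14.7 TPM. SMTN was next at 5.96 and 9.63 TPM, from 297 and 626 counts. MYOCD, the smooth and cardiac muscle co-activator of serum response factor, had 0 counts in both, while SRF had 6629 and 11922. The ACTA2 level alone was above the summed level of these 11 markers in both libraries.

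Markers of other cells were low with few exceptions. The 12 striated muscle markers other than actins summed to 2.33 TPM untreated and 1.77 treated, with 7 at 0 counts. Of the 12 fibroblast markers 6 were at 0, among them COL3A1, DCN, LUM and POSTN. COL1A2 and PDGFRA had 0 counts untreated and 2 treated, while the collagen gene COL1A1 had 172 and 317 counts, or 1.71 and 2.41 TPM. The fibroblast list summed to 230 and 289 TPM, mostly from THY1, a surface protein that lymphoid cells can also carry, with 11600 and 18217 counts. The 10 endothelial and epithelial markers summed to 102 and 98.96 TPM, nearly all from EPCAM, with 2591 and 3236 counts, and VWF, CDH5, KDR, TEK and KRT19 were at 0.

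T cell genes were present, with gaps. The 14 T cell markers summed to 2824 TPM untreated and 2936 treated, and 11 passed the minimum of 100 counts over both libraries. CD3D had 7122 and 7431 counts, ZAP70 had 10278 and 15639, LCK had 4880 and 10636, and IL2RG had 22898 and 25629. CD2 had 0 and 2 counts, CD7 had 8 in each library, CD28 had 8 and 13, and CD4 had 768 and 1387. In bulk RNA, more cells with a gene and more RNA per cell cannot be told apart, so these counts do not show how many H9 cells carried ACTA2.

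**Figure D2:**
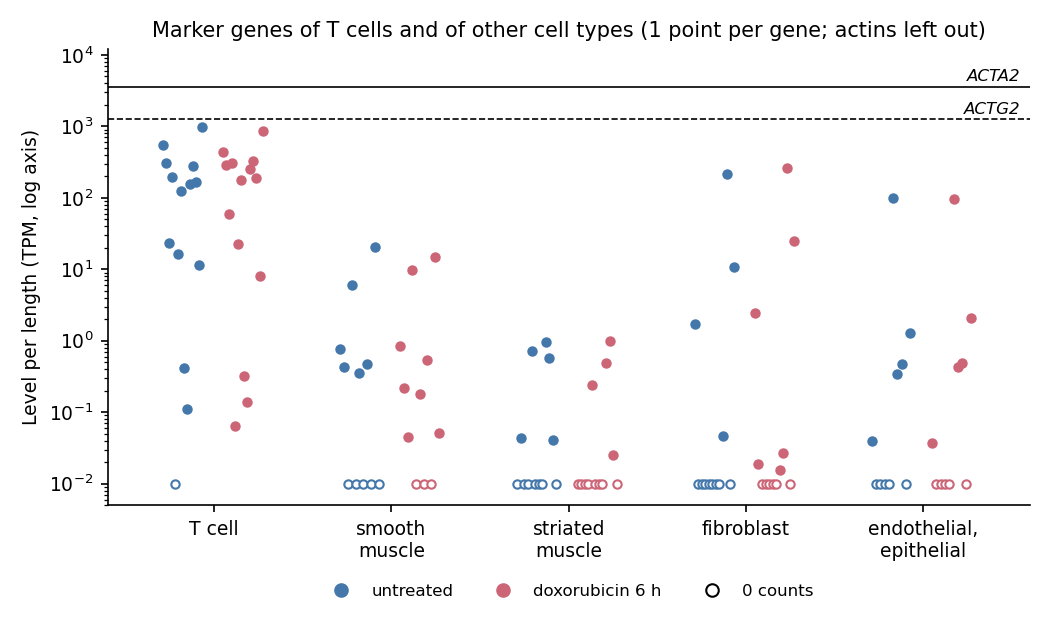
Level per length in TPM (log axis) of each marker gene, 1 point per gene, in the untreated (blue) and doxorubicin (red) library, with actins left out and open circles for 0 counts placed at the bottom. The solid and dashed lines are ACTA2 and ACTG2 in the untreated library; both lie above every marker gene drawn, T cell markers included.

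As parts of the actin pool, the muscle forms were a minority. The 6 actin genes together took 1.63% of all counts untreated and 1.53% treated. Per length, ACTB was 38.1% of the summed actin level untreated and 39.5% treated, and ACTG1 was 38.6% and 41.3%. ACTA2 was 17.2% untreated and 13.6% treated. ACTG2 was 6.115% and 5.58%, with ACTA1 and ACTC1 at 0 counts. In shares of actin counts, where an exact binomial (Clopper-Pearson) 95% interval can be given, ACTA2 had 12.9% (12.83 to 13.01) untreated and 10.1% (10.05 to 10.2) treated. ACTG2 had 5.22% (5.16 to 5.28) and 4.70% (4.65 to 4.75). At such counts the intervals are narrow, and they speak of these 2 libraries only. The reference transcripts of ACTA2 and ACTG2, with 1349 and 1530 bases, are shorter than those of ACTB and ACTG1, with 1812 and 2011. Shorter transcripts had lower ratios across the table, as given below, and the shares are not adjusted for that. These shares do not depend on how the libraries were scaled to each other.

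**Figure D3:**
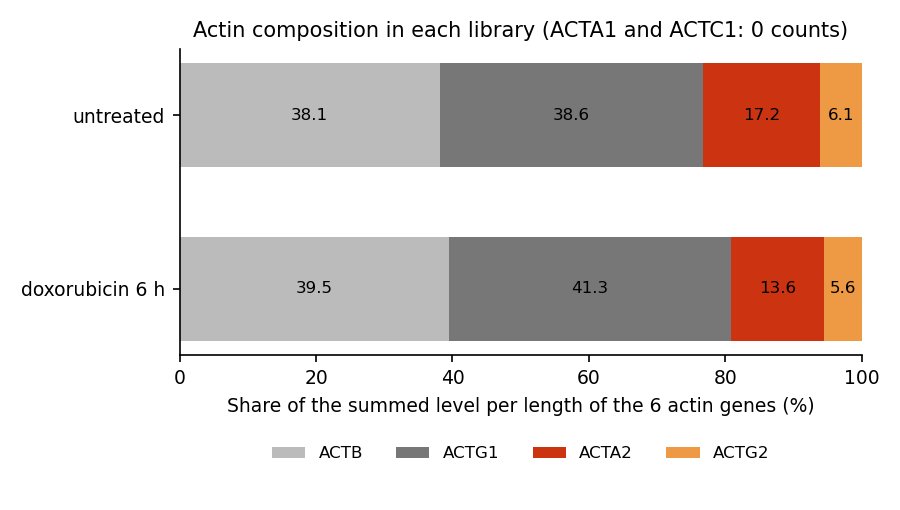
Share of each actin gene in the summed level per length of the 6 actin genes (%), as stacked bars for the untreated and the doxorubicin library, 1 library each. ACTA2 (red) is 17.2% untreated and 13.6% with doxorubicin, and ACTA1 and ACTC1 have no segment because they had 0 counts.

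Between the conditions 0 of the 7 measured genes passed the size rule in either direction. That rule asks for a ratio of at least 1.5-fold after scaling by TMM library sizes, with a 95% counting interval that excludes a ratio of 1, in genes with at least 100 counts over both libraries. Among all 11244 measured genes 7.26% were higher and 9.57% lower by it, or 16.8% in either direction. The other 3 of the 10 genes, ACTA1, ACTC1 and MYL9, were below the minimum. The 7 genes had log2 ratios of treated over untreated from -0.52 to -0.08 and a median of -0.31, where the median of all measured genes was 0.0066.

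ACTA2 and CNN2 had the lowest ratios. ACTA2 went from 2102 to 1543 CPM, a log2 ratio of -0.51 (-0.53 to -0.50), and 12.3% of measured genes had a lower one. CNN2 went from 635 to 464 CPM, a log2 ratio of -0.52 (-0.55 to -0.49). Both differences were 1.43-fold, beyond counting error and short of the 1.5-fold limit. ACTG2 went from 850 to 717 CPM, at -0.31 (-0.34 to -0.29). The cytoplasmic actins lay closest to no difference, ACTB at -0.13 (-0.14 to -0.12) and ACTG1 at -0.08 (-0.09 to -0.07). TAGLN2 was at -0.18 (-0.21 to -0.16), and TAGLN, from 69 and 80 counts, at -0.43 (-0.91 to 0.06), an interval that includes 0.

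Transcript length moved with these ratios. Across the table the fifth of measured genes with the shortest transcripts, up to 1884 bases, had a median log2 ratio of -0.39, and the fifth with the longest had 0.28. The reference transcripts of the 7 genes run from 1349 bases for ACTA2 to 2194 for CNN2, below the median of 3254. At the length of ACTA2 the lowess curve over all measured genes lay at -0.38. Relative to that curve ACTA2 was at -0.135 (-0.15 to -0.12) and ACTG2 at -0.0015 (-0.02 to 0.02). ACTB, ACTG1 and TAGLN2 turned to the other sign, at 0.10 (0.09 to 0.11), 0.10 (0.09 to 0.11) and 0.105 (0.08 to 0.13). CNN2 remained at -0.38 (-0.41 to -0.35). After this adjustment 0 of the 7 genes passed the size rule, as against 4.89% higher and 4.65% lower, or 9.54% in all, of 11033 genes with a length.

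**Figure D4:**
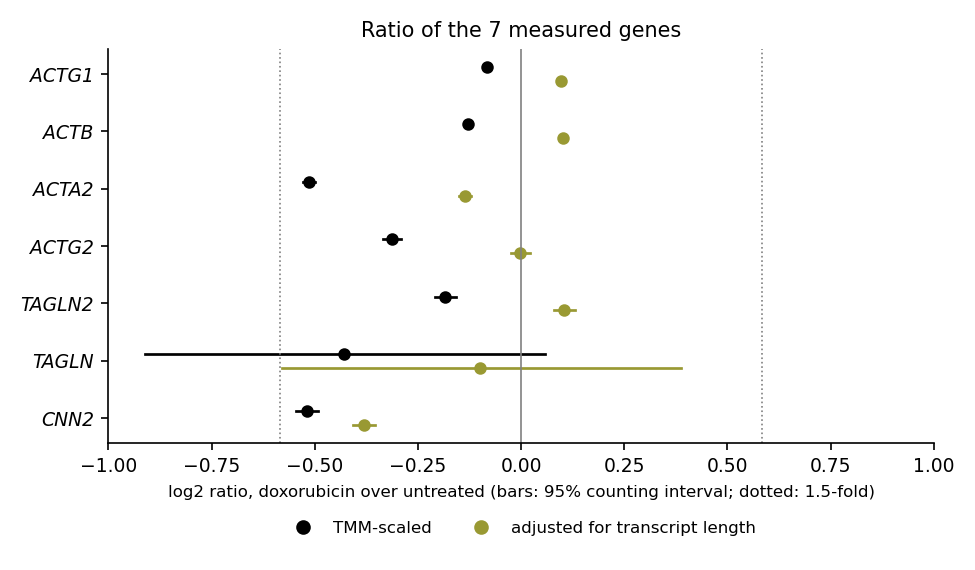
The log2 ratio of doxorubicin over untreated for the 7 measured genes, scaled by TMM (black) and adjusted for transcript length (olive), with 95% counting intervals as bars and the 1.5-fold limits dotted. All 7 points lie between the dotted lines by both values, the interval of TAGLN reaches beyond one, and after adjustment CNN2 at -0.38 is the lowest.

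**Figure D5:**
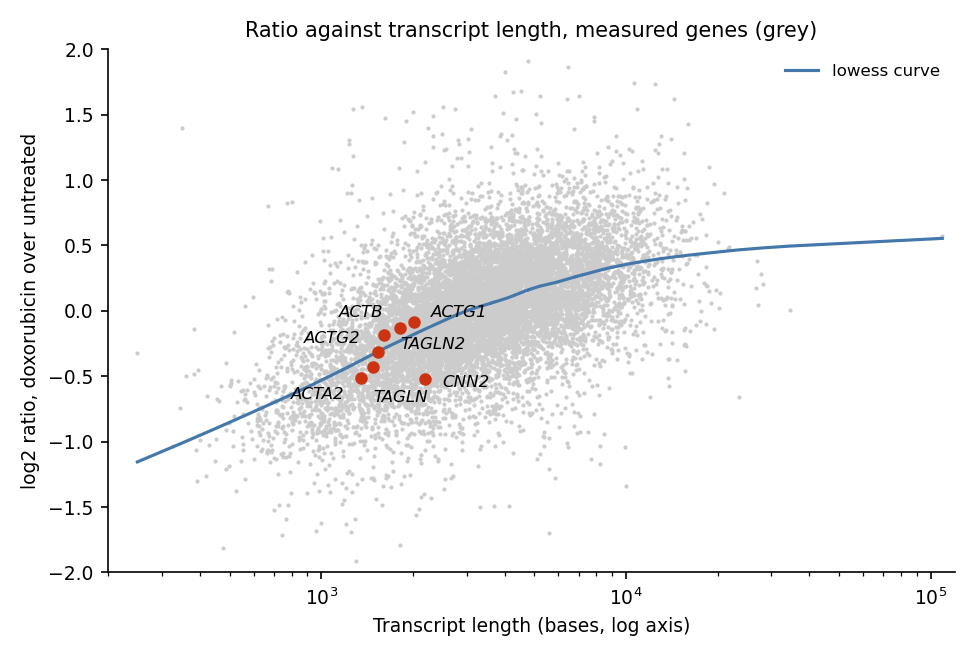
The log2 ratio of doxorubicin over untreated against transcript length in bases (log axis) for 11033 measured genes (grey), of which 6 fall outside the frame, with the lowess curve (blue) and the 7 genes (red). The actins lie near the curve, and CNN2 lies below it.

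Within a library the ratio of one actin to another does not depend on scaling. ACTA2 per ACTB, in counts, was 0.335 untreated and 0.256 treated, a log2 difference of -0.39. ACTA2 per ACTG2 was 2.47 and 2.15, a difference of -0.20. ACTG1 per ACTB was 1.12 and 1.16, a difference of 0.05, and CNN2 per ACTA2 was 0.302 and 0.301. The 2 cytoplasmic actins thus kept their proportion more closely than ACTA2 did to either of them in these libraries, and ACTA2 has the shortest transcript of the 4.

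Neighbours of ACTA2 on chromosome 10 had log2 ratios on both sides of 0, and those given here did not pass the size rule. FAS was at -0.10 (-0.13 to -0.07), STAMBPL1, a deubiquitinase gene, at 0.26 (0.10 to 0.43) and LIPA, which encodes lysosomal acid lipase, at 0.41 (0.31 to 0.52). CH25H had 0 counts in both libraries.

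The other genes of the actin system were read from 8 lists, which together hold 101 measured genes besides the members. Of these 12 were higher by the size rule, 6 lower and 83 neither, or 3 higher and 0 lower after adjustment for transcript length. Over all measured genes the shares were 7.26% higher and 9.57% lower, and 4.89% and 4.65% after adjustment, so the counts of the actin system are read against these shares and not as a result about it. The same shares apply to the counts of each list below, which hold 7 to 19 measured genes. The median log2 ratio of the 101 genes was -0.04. The lists cover monomer regulators, the Arp2/3 complex, nucleators, crosslinkers, tropomyosins and calponins, myosin II, serum response factor with its targets, and actin-related proteins with the actin-folding chaperonin. Under total-count scaling 15 were higher and 3 lower, where all measured genes had 9.64% higher and 7.58% lower.

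Regulators of the actin monomer had 2 of 17 measured genes higher and 2 lower, beside 7.26% and 9.57% of all measured genes. The thymosins TMSB4X and TMSB10, which bind free actin monomers, were 1.78-fold (1.76 to 1.79) and 1.81-fold (1.77 to 1.85) lower. TMSB4X had the highest level per length, 19132 TPM untreated and 12865 treated, from 180169 and 158141 counts. Both lay near the length curve, at -0.08 and -0.0007 after adjustment. PFN1, the profilin that feeds monomers to growing filaments, had 133071 and 147422 counts and a log2 ratio of -0.49, not past the rule. The cofilin phosphatases SSH2, 1.66-fold (1.58 to 1.75), and SSH1, 1.53-fold (1.42 to 1.64), were higher. After adjustment they were below the limit, at 0.39 and 0.21.

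Filament crosslinkers and cappers had 4 of 19 measured genes higher and 0 lower. FLNA, filamin A, had 24984 counts untreated and 77265 treated and was 1.98-fold higher (1.96 to 2.01). CAPZA2, of the capping protein that closes the fast-growing filament end, was 1.85-fold higher (1.75 to 1.96). These 2 were also past the rule after adjustment, at 0.67 and 0.70. CORO1A, the coronin of blood cells, had 113129 and 125592 counts at a log2 ratio of -0.49, and LCP1, the plastin of leukocytes, had 48679 and 89581 at 0.24, neither past the rule.

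The nucleation machinery stayed mostly within the limit. Of 9 measured Arp2/3 subunit genes 1 was lower, ARPC3 at 1.56-fold (1.52 to 1.60), and it was at -0.12 after adjustment. ARPC2, the Arp2/3 subunit with the highest level over both libraries, was at -0.06. Of 16 nucleators and activators 2 were higher, WASF2 at 1.51-fold (1.45 to 1.56) and the formin DAAM1 at a log2 ratio of 0.59 (0.47 to 0.71), with 0 lower, and neither passed after adjustment. WAS, the Wiskott-Aldrich protein of blood cells, was at -0.55 and HCLS1, a cortactin relative, at -0.0090. Of 17 actin-related proteins and chaperonin subunits 0 passed the rule, with TCP1 at 0.07 and CCT7 at 0.02.

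Myosin II genes lay on both sides. The heavy chain MYH10 was 1.60-fold (1.56 to 1.66) and the kinase ROCK2 1.55-fold (1.44 to 1.68) higher, while the light chains MYL12A, MYL12B and MYL6B were lower, by 1.56-fold (1.52 to 1.60), 1.51-fold (1.46 to 1.56) and 1.60-fold (1.46 to 1.75). None of these 5 passed after adjustment for length, the heavy chain and kinase having long and the light chains short transcripts. MYH9, the main nonmuscle heavy chain here with 54271 and 105649 counts, was at 0.32. Of 7 measured tropomyosins, calponins and transgelins, with TAGLN, TAGLN2 and CNN2 from above among them, 0 passed, and TPM3 was at -0.11. Of 14 measured genes of serum response factor, its co-factors and targets, the actins among them, 2 were higher and 0 lower, beside 7.26% and 9.57% of all measured genes. They were MKL2, an MRTF co-factor, at 1.98-fold (1.76 to 2.23), and VCL, vinculin, at 1.91-fold (1.80 to 2.04). After adjustment VCL was at 0.69 and past the rule, and MKL2 had no length here.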

How the data were processed

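The deposited table gives whole-number read counts for each gene symbol, 1 untreated and 1 treated library. HISAT2, featureCounts and hg19 are named in the submitters' processing notes; the sources used here give no versions, annotation, strand setting or multi-mapping rule. The titles end in 1 and 2, and whether these number cultures is not stated. The genes and lists were chosen with earlier results of these data known.

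Library sizes were scaled by TMM (edgeR 4.0.16, R 4.3.3). Ratios were computed with 0.5 added to each count. Their intervals are exact Clopper-Pearson 95% intervals from the unscaled counts with nothing added, shifted afterwards by the scaled library sizes. TPM used the longest GENCODE 29 protein-coding transcript paired with RefSeq; that annotation is on GRCh38, and 98.1% of 11244 measured genes matched. The length adjustment subtracted a lowess curve (span 0.3, statsmodels 0.14.6) of log2 ratio on log2 length. Coding sequences were aligned with MAFFT 7.526. The ratio script was tested on simulated data. Named genes are the members, the listed neighbours of ACTA2, the 3 genes on either side of it in level, and from each list the 2 highest levels and up to 2 highest and 2 lowest ratios past the size rule; 1 listed neighbour is not reported here, and other listed genes named were chosen after their values were seen. Alternatives were DESeq2 1.42.0 size factors, total counts, other minimums, limits, added counts, intervals and lengths. Since reads carried no stated molecular identifiers, several may stem from 1 molecule.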

Additional observations from a re-analysis of the deposited data

How the results depend on the processing

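The log2 ratios of the 7 measured genes kept their sign and their side of the size rule in 25 of 28 recomputations over DESeq2 size factors, total counts, 5 added counts and length adjustment. The exceptions were ACTB at 0.10, ACTG1 at 0.10 and TAGLN2 at 0.105 after adjustment for transcript length. With that adjustment ACTG2, counted as keeping its sign, was at -0.0015 (-0.02 to 0.02), and ACTA2 was at -0.135. A change of library scaling shifts all genes by the same amount. The count of 0 genes past the rule became 2 lower, ACTA2 and CNN2, with a limit of 1.3-fold, beside 18.6% of all measured genes. It stayed at 0 in the other settings. Of these the 2-fold limit and the 99% interval are stricter, so they could not have raised it. The 12 higher and 6 lower genes among the other 101 of the actin system compare with 3 and 0 after length adjustment (all measured genes: 4.89% and 4.65%), 21 and 16 at 1.3-fold (16.7% and 18.6%), and 0 and 0 at 2-fold (1.14% and 1.56%). Total-count scaling gave 3 lower (7.58%). The ACTA2 share of the actin level, 17.2% untreated and 13.6% treated, was 15.6% and 12.4% with median transcript lengths, 13.9% and 10.9% with merged exons, and 12.9% and 10.1% with no division by length. Its level of 3505 and 2933 TPM was 2432 and 1830, 2798 and 2258, and 2102 and 1543 in the same order, and it stayed between places 27 and 33. No paired analysis was possible because each condition has 1 library. For the same reason no library could be left out. Few or no counts limited what can be said of TAGLN, MYL9, ACTA1 and ACTC1.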

Other observations

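A few listed markers of other cell types had clear counts in both libraries. EPCAM, an adhesion molecule best known from epithelia, had 100 and 95.9 TPM with a log2 ratio of -0.32, not past the size rule. FBN1, which encodes the matrix protein fibrillin 1, had 1917 and 5751 counts and was 1.92-fold higher (1.83 to 2.03), though at 0.56 after adjustment for transcript length it was below the limit. KCNMB1, the smooth muscle potassium channel subunit, had 1569 and 1450 counts and was 1.69-fold lower (1.57 to 1.81), and after adjustment it was lower still, at -0.93. TTN, the giant protein of striated muscle, had 927 and 2144 counts, which is 0.566 and 1.003 TPM over its 109224 bases, with a log2 ratio of 0.57 that did not pass the rule. CD3G, which belongs to the CD3 complex, had 931 and 3134 counts, 2.16-fold higher (2.01 to 2.33), and was also past the rule after adjustment, at 1.16. TRAT1, a T cell receptor adaptor, had 328 and 306 counts and was 1.67-fold lower (1.43 to 1.96), and at -0.54 after adjustment it was below the limit. These values have no replicate.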
